A study of Mus musculus with 2 samples.

Results

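T cells were rare in these tumors: 115 of the 54574 cell barcodes that passed quality control. They were picked by gene detection and not by clustering. A barcode was taken as a T cell when it held unique molecular identifiers (UMIs) of at least 2 of Cd3d, Cd3e and Cd3g, at most 2 UMIs of the complement genes C1qa, C1qb and C1qc together, which mark microglia and macrophages, and at most 3 UMIs of Olig1, Olig2 and Ptprz1 together, which mark the tumor. The tumors were grown by injecting mGSC, a mouse glioblastoma stem cell line of genotype Trp53+/- and Nf1+/-, into the right striatum of C57BL/6J mice, which keep their own immune system, so that the T cells came from the host. The methods give the purchased C57BL/6 mice as female and 6 to 8 weeks old. Both groups carried the same tumor line and received either vehicle or Xevinapant by mouth at 50 mg/kg per day for 7 days, 4 tumors in each group, with tumors taken right after treatment. Xevinapant is a SMAC mimetic, a small molecule that antagonises inhibitor of apoptosis (IAP) proteins.

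T cells read antigen through a receptor that signals through the CD3 chains. Cells with CD8 can kill their targets, cells with CD4 help or regulate other immune cells, and regulatory T cells, defined by the transcription factor Foxp3, hold immune responses in check and are known to gather in gliomas. IAP proteins also sit in the NF-kB pathway that costimulatory receptors of T cells use.

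Each group was deposited as 4 count matrices. The names of the 4 Xevinapant matrices carry the word vehicle after a prefix X, whereas the record they belong to is labelled Xevinapant. That label was followed, and the direction of every comparison between the groups rests on it. Matrices 1 and 3 of the vehicle group and matrices 1 and 2 and matrices 3 and 4 of the Xevinapant group were nearly alike, their gene means differing by 1.03 to 1.34 times what sampling alone gives in 1000 cells thinned to 5000 UMIs. The other 9 pairs within a group differed by 2.16 to 3.04 times that amount. With all counts the 3 pairs differed by 1.27 to 2.77 times sampling noise and the other 9 by 5.45 to 9.57 times, so the alike pairs were not equal within sampling noise at full depth. Each of the 3 alike pairs was counted as 1 sample. This left 5 samples, 3 vehicle and 2 Xevinapant. Per the labels each treatment had its own pool and batch date, and the molecule is given as total RNA for vehicle and polyA RNA for Xevinapant. The effects of batch and of treatment cannot be told apart in anything below. A further 1413 full barcodes occurred in both pools, 1112 of them with UMI totals that differed more than 100-fold, and 1 T cell of vehicle 4 was among them (1537 UMIs, with 10903 UMIs under the same barcode in the Xevinapant pool). Probe barcodes let several cells share a droplet, and 33 of the 115 T cells shared theirs with a barcode of another matrix of the same pool.

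The cells were shallow. The median T cell held 1887 UMIs and 1356 genes, with totals from 551 to 11297 UMIs. Medians per matrix ran from 1536 to 2679 UMIs in T cells, from 3159 to 4464 in other leukocytes and from 13382 to 20184 in tumor barcodes. Only 284649 UMIs in all lay behind the T cell values, and the sums per sample were 34248 for vehicle 1 and 3, 10231 for vehicle 2, 45648 for vehicle 4, 43261 for Xevinapant 1 and 2 and 151261 for Xevinapant 3 and 4. One UMI in vehicle 2, with 5 T cells, therefore weighed far more after scaling to a common total than in any other sample. All 3 Cd3 genes were detected in 75 of the 115 cells and exactly 2 in 40. Just outside the rule lay 60 barcodes with 1 Cd3 gene that met both other limits, 28 of them leukocytes by the definition below. They were 4 in vehicle 1 and 3, 1 in vehicle 2, 4 in vehicle 4, 8 in Xevinapant 1 and 2 and 43 in Xevinapant 3 and 4. Another 35 barcodes with at least 2 Cd3 genes failed a limit, 6 on C1q alone, 18 on the tumor genes alone and 11 on both. Of the members, 105 held no C1q UMI and 1 stood at the limit of 3 tumor-gene UMIs.

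T cells made up 0.154%, 0.0701% and 0.168% of cell barcodes in vehicle 1 and 3, vehicle 2 and vehicle 4, and 0.192% and 0.362% in Xevinapant 1 and 2 and Xevinapant 3 and 4. The counts behind these shares were 14 of 9079, 5 of 7135, 24 of 14310, 17 of 8868 and 55 of 15182 barcodes. Both Xevinapant samples lay above all 3 vehicle samples, with means of 0.277% ± 0.121 (SD, n = 2) and 0.131% ± 0.0529 (SD, n = 3). The lack of overlap depended on the limits for C1q and tumor genes: with every barcode of at least 2 Cd3 genes the shares were 0.187%, 0.0701% and 0.266% in vehicle and 0.248% and 0.448% in Xevinapant, which overlap (exact permutation test, p = 0.3). Of the 35 barcodes this adds, 14 were in vehicle 4. The difference of 0.146 percentage points was 0.061 without Xevinapant 3 and 4 and 0.232 without Xevinapant 1 and 2. The exact two-sided permutation test gave p = 0.1, the smallest that 3 samples against 2 can give. The exact binomial 95% interval of Xevinapant 1 and 2, 0.112% to 0.307%, covered the shares of vehicle 4 and of vehicle 1 and 3. With only vehicle 1 and 3 joined, 3 vehicle against 4 Xevinapant samples, the difference was 0.146 percentage points (exact permutation test, p = 0.0857). With each of the 8 matrices as 1 sample the exact permutation p was 0.0286, but the 3 alike pairs then count as independent.

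Among leukocytes the picture was different. Leukocytes were barcodes with at least 2 of Ptprc, Laptm5, Cd53 and Rac2 and at most 3 tumor-gene UMIs, 3180 in all, and they held 107 of the 115 T cells. T cells were 3.08%, 2.43% and 4.43% of leukocytes in vehicle 1 and 3, vehicle 2 and vehicle 4, and 1.43% and 5.67% in Xevinapant 1 and 2 and Xevinapant 3 and 4. The lowest and the highest share were both Xevinapant samples, the groups overlapped, and the vehicle mean was 3.31% ± 1.02 (SD, n = 3) and the Xevinapant mean 3.55% ± 3.0 (SD, n = 2). The permutation test, exact and two-sided, gave p = 0.9. Without vehicle 2 the difference, Xevinapant minus vehicle, was -0.203 percentage points. Without Xevinapant 3 and 4 it was -1.88, and without Xevinapant 1 and 2 it was 2.36.

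**Figure D1:**
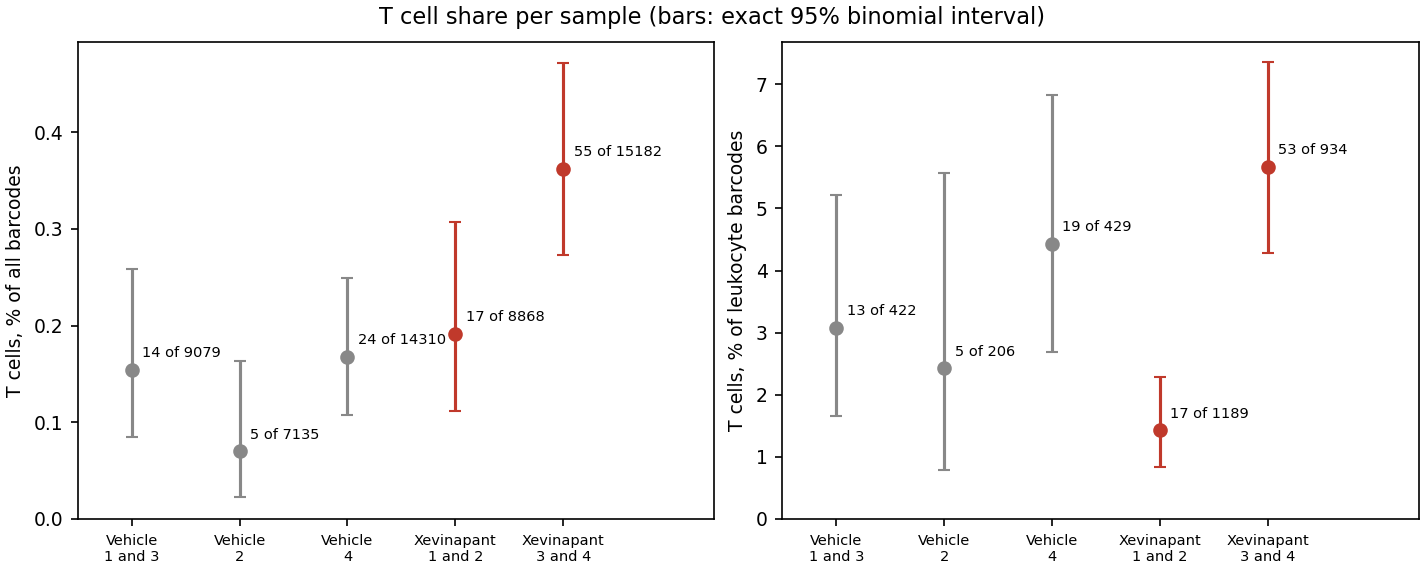
Share of T cells among all barcodes (left, %) and among leukocyte barcodes (right, %) in each of the 5 samples, grey for vehicle and red for Xevinapant, with exact binomial 95% intervals that cover counting error only. Both Xevinapant samples lie above the vehicle samples on the left (0.192% and 0.362% against at most 0.168%), while on the right the Xevinapant samples hold both the lowest and the highest share (1.43% and 5.67%).

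The label was checked against T cell genes that the rule did not use. Trac, the constant region of the T cell receptor alpha chain, was detected in 92 of the 115 cells, at 2803, 1271 and 2213 CPM (UMIs of a gene scaled to a common total per sample) in vehicle 1 and 3, vehicle 2 and vehicle 4 and 2705 and 1692 CPM in Xevinapant 1 and 2 and Xevinapant 3 and 4. In barcodes with more than 2 C1q UMIs (C1q barcodes), which should lack it, Trac was detected in 0.149%, and in tumor barcodes in 0.157%, although both are deeper. Both sets leave out barcodes with at least 2 Cd3 genes, 6 above the C1q limit alone and 18 above the tumor-gene limit alone. That can lower the share with T cell genes in them. Lck, the kinase that starts receptor signalling, was detected in 89 cells, and the adaptor Lat in 81. All 24 genes of the T cell identity list had UMIs, 22 of them in at least 10% of the cells. All 20 genes of the receptor signalling list were also detected in at least 10%, with Zap70, which binds the phosphorylated CD3 chains, in 61 cells. Detection alone does not set T cells apart, and Ptpn6 and Vav1 of this list had lower mean levels in T cells than in other leukocytes.

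Levels in T cells were set against the 3067 other leukocyte barcodes with fewer than 2 Cd3 genes as a description, since the cells were picked on T cell genes. Of the genes at 50 CPM or more in T cells, those with the highest ratio included Trac, Trbc2, Trbv14, Lck, Ms4a4b, Il2rb, Gimap3, Nkg7, Cd2, Cd8b1, Cd8a, Ccl1, Gimap4 and Lat. Il2rb, the beta chain of the interleukin-2 and interleukin-15 receptors, stood at 1767 ± 421 CPM in T cells and 24.4 ± 14.4 CPM in other leukocytes (SD, n = 5). Cd2, an adhesion receptor, varied least between samples among these genes, from 880 to 1095 CPM. Of the genes named here, only Ccl1, which encodes a ligand of Ccr8, was not higher in T cells in all 5 samples. It had UMIs in 2 cells, and 117 of its 118 UMIs lay in 1 cell of vehicle 4 with none of Foxp3, Cd4 and Cd8a.

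**Figure D2:**
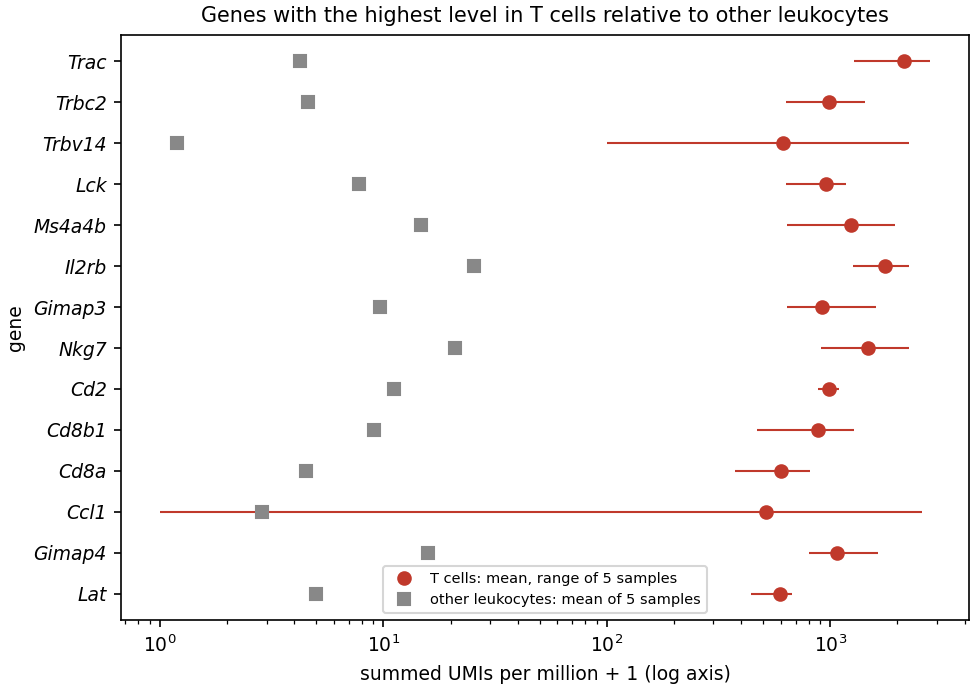
Level of the genes named above in T cells (red points, mean of 5 samples, lines from the lowest to the highest sample) and in other leukocytes (grey squares, mean of 5 samples), in CPM plus 1 on a log axis. Cd2 ran from 880 to 1095 CPM in T cells, whereas Ccl1 ran from 0 to 2585 CPM.

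By detection, Foxp3 was found in 23 cells, Cd4 without Foxp3 in 13, Cd8a in 51 and none of the 3 genes in 28. No cell held both Cd4 and Cd8a, and no Foxp3 cell held Cd8a, while 16 of the 23 Foxp3 cells held Cd4. Cd8b1, the other CD8 chain, was found in 42 of the 51 Cd8a cells and in 4 cells without Cd8a. Foxp3 was found in 0.0745% and Cd8a in 0.0745% of C1q barcodes, and in 0.202% and 0.0451% of tumor barcodes. Cd4 was found in 10.8% of C1q barcodes, so that a Cd4 UMI alone sets T cells apart from these less sharply than the other genes do. At depths near 2000 UMIs a cell without a UMI may still express the gene: with every cell thinned to 1000 UMIs (12 shallower cells left out), 16.5% of 103 cells held Foxp3, 9.71% Cd4 without Foxp3, 35.9% Cd8a and 37.9% none, against 20%, 11.3%, 44.3% and 24.3% without thinning. The median UMI totals of the 4 subsets were 2155, 1593, 2063 and 1699.5.

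Foxp3 cells were 3 of 14 T cells in vehicle 1 and 3, 0 of 5 in vehicle 2 and 7 of 24 in vehicle 4, and 0 of 17 in Xevinapant 1 and 2 and 13 of 55 in Xevinapant 3 and 4. Each group thus held a sample with none. The exact binomial 95% interval reached up to 52.2% for 0 of 5 cells in vehicle 2 and up to 19.5% for 0 of 17 in Xevinapant 1 and 2, and a floor of 3 cells corresponds to 60% and 17.6%. The vehicle mean was 16.9% ± 15.1 (SD, n = 3) and the Xevinapant mean 11.8% ± 16.7 (SD, n = 2), with p = 0.8 in the exact permutation test. The difference of -5.05 percentage points was 1.10 without vehicle 4 and 6.77 without Xevinapant 1 and 2. Cd8a cells were 4 of 14, 3 of 5 and 5 of 24 in the vehicle samples and 10 of 17 and 29 of 55 in the Xevinapant samples, that is 28.6%, 60% and 20.8% against 58.8% and 52.7%. Vehicle 2, with 5 cells, lay above both Xevinapant samples and the other vehicle samples below them (exact permutation test, p = 0.4). The difference of 19.3 percentage points was 31.1 without vehicle 2, 11.5 without vehicle 4 and 7.02 with every cell thinned to 1000 UMIs. Cd4 cells without Foxp3 were 1, 0 and 4 cells in the vehicle samples and 2 and 6 in the Xevinapant samples (exact permutation test, p = 0.7), and the difference of 3.40 percentage points was -0.568 without vehicle 2. Cells with none of the 3 genes were the only subset whose groups did not overlap, at 42.9%, 40% and 33.3% in vehicle and 29.4% and 12.7% in Xevinapant (exact permutation test, p = 0.1). This subset depends on depth, and thinned to 1000 UMIs the shares were 38.5%, 60% and 47.4% against 56.2% and 26.0%, which overlap. With all 3 Cd3 genes required, the difference of -17.7 percentage points became 0.786.

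**Figure D3:**
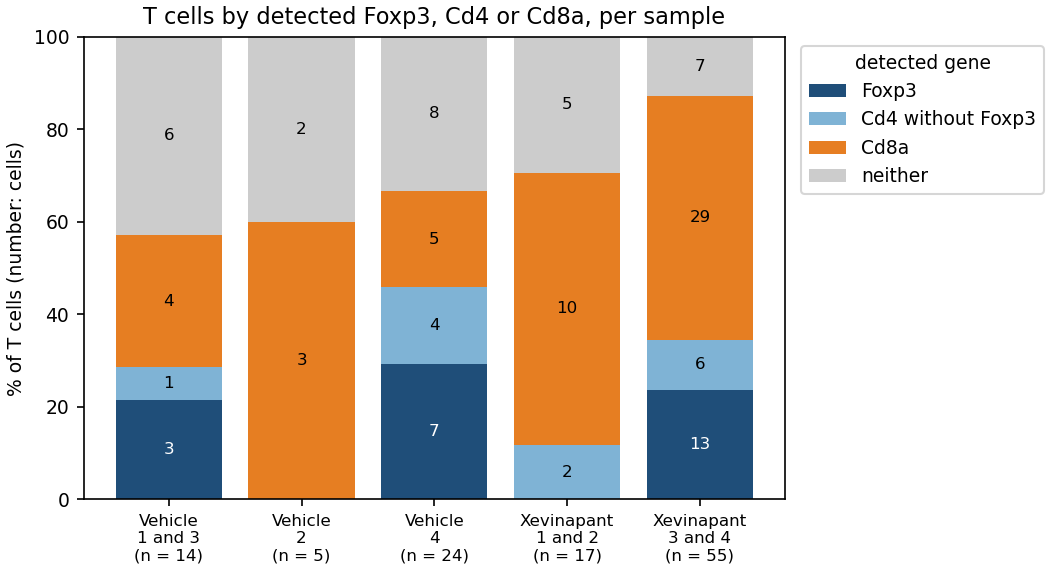
Share of the T cells of each sample (%, with cell counts in the bars) in which Foxp3, Cd4 without Foxp3, Cd8a or none of these was detected. Foxp3 cells were absent from the counts of vehicle 2 and of Xevinapant 1 and 2, and Cd8a cells ran from 20.8% in vehicle 4 to 60% in vehicle 2.

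Of the 22 genes of the regulatory T cell list, which leaves out Foxp3 itself, 20 had UMIs in T cells, and 18 were detected in a larger share of Foxp3 than of Cd8a cells. Il10, Areg and Gpr83 had no UMI in Foxp3 cells, and Entpd1, an enzyme that degrades extracellular ATP, was found in 21.7% of Foxp3 and 25.5% of Cd8a cells. Only 2 samples held 5 cells on both sides of the Foxp3 split, fewer than the 3 set for a fit, so these values are a description over cells and were not tested. Foxp3 itself reached a median of 4 and at most 10 UMIs in the cells that held it. Ctla4, an inhibitory receptor, was found in 16 of 23 Foxp3 cells and in 12 of the 92 others, at 1350 and 74.9 CPM. It was found in 1 of 3 Foxp3 cells in vehicle 1 and 3, 5 of 7 in vehicle 4 and 10 of 13 in Xevinapant 3 and 4. Il2ra, the alpha chain of the interleukin-2 receptor, was found in 13 Foxp3 cells and 10 others, and in 3 of 3, 3 of 7 and 7 of 13 Foxp3 cells of those samples.

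Tnfrsf9 (4-1BB), a costimulatory receptor of the tumor necrosis factor family, was found in 17 Foxp3 cells and 10 others, at 1575 and 65.6 CPM. Tnfrsf4 (OX40), of the same family, was found in 17 Foxp3 cells and 8 others, at 971 and 46.8 CPM, and in none of the 51 Cd8a cells. The gap was narrower for Tnfrsf18 (GITR), also of this family, with 16 Foxp3 cells (69.6%) and 30 others (32.6%). Ccr8, a chemokine receptor, was found in 16 Foxp3 cells (3 of 3, 6 of 7 and 7 of 13 by sample) and in 7 others. The transcription factors Ikzf2 (Helios) and Ikzf4 (Eos) were found in 19 and 14 Foxp3 cells and in 24 and 2 others. Icos, a costimulatory receptor, was found in 14 Foxp3 cells and 18 others, and Itgae, the integrin chain CD103, in 12 and 9.

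Among all 4256 genes with at least 20 UMIs in T cells, the largest gaps in detection beside these included Bmyc (73.9% of Foxp3 cells and 10.9% of others), Fgl2 (87.0% and 32.6%), Gata3 (73.9% and 22.8%), Rgs16 (60.9% and 10.9%) and Dusp4 (52.2% and 3.26%). Gata3 encodes a transcription factor of T cells, and Rgs16 and Dusp4 encode regulators of G protein and MAP kinase signalling. These genes were picked for that gap. The opposite end held Tcf7, a transcription factor of naive and memory cells, with 0 UMIs in Foxp3 cells and UMIs in 37 of the 92 others, and Bcl2, an antiapoptotic gene, with 2 Foxp3 cells and 55 others. Of the 13 Cd4 cells without Foxp3, 6 held Ctla4, 7 held Icos and 9 held Tnfrsf18. Maf, a transcription factor, was found in 8 of these 13 and in 12 of 23 Foxp3 cells. Il10 and Areg, which encode products of regulatory cells, had no UMI in any of the 115 cells.

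Cytotoxic genes were found in Cd8a cells and in the cells with none of Foxp3, Cd4 and Cd8a. All 19 genes of the list had UMIs, and 17 were detected in a larger share of Cd8a than of Foxp3 cells. Their summed level was 12424 CPM in Cd8a cells, 12046 CPM in the cells with none of the 3 genes, 2813 CPM in Foxp3 cells and 2793 CPM in Cd4 cells without Foxp3. Prf1, which encodes perforin, was found in 25.5% of Cd8a cells and 32.1% of the cells with none, and Fasl, the ligand of the death receptor Fas, in 27.5% and 39.3%. Nkg7, a protein of cytotoxic granules, was found in 44 of 51 Cd8a cells and in 4 of 23 Foxp3 cells, with 4 of 4, 3 of 3 and 5 of 5 Cd8a cells in the vehicle samples and 8 of 10 and 24 of 29 in the Xevinapant samples. Ccl5, a chemokine, was found in 38 Cd8a cells at 4814 CPM and in 7 Foxp3 cells at 295 CPM. It was found in 7.45% of C1q barcodes and 4.55% of tumor barcodes, and Nkg7 in 0.0372% and 0.199%. Among the effectors, Gzmk was found in 21 Cd8a cells and no Foxp3 cell, Gzmb in 16 and 3, and Prf1 in 13 and 0. Eomes, a transcription factor of effector and memory cells, was found in 25 Cd8a cells and no Foxp3 cell. By sample it was found in 1 of 4, 0 of 3 and 1 of 5 Cd8a cells of the vehicle samples and in 4 of 10 and 19 of 29 of the Xevinapant samples. With 12 Cd8a cells in the vehicle group this split was not tested.

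A few cells held most of some effector transcripts. Ifng, which encodes interferon gamma, had 73 UMIs in 7 cells, and 63 of them lay in 1 Cd8a cell of Xevinapant 3 and 4, which also held 67 of the 125 UMIs of the chemokine gene Xcl1. Gzma had 22 UMIs in 3 cells, 20 of them in 1 Cd8a cell of vehicle 1 and 3. Cytokine genes were otherwise scarce: Il4, Il5, Il13, Il17a, Il17f, Il21, Il22 and Csf2 had no UMI in any T cell, and Il2 had 2. At a floor of 3 UMIs in 284649, such a gene may still be expressed below what these cells can show.

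Of the 17 checkpoint and exhaustion genes, all with UMIs, 9 were detected in a larger share of Foxp3 than of Cd8a cells and 8 in a larger share of Cd8a cells. Pdcd1, which encodes PD-1, was found in 17 of 23 Foxp3 cells, 25 of 51 Cd8a cells and 3 of 28 cells with none of the 3 marker genes. It was found in 1 of 4, 2 of 3 and 2 of 5 Cd8a cells of the vehicle samples and in 4 of 10 and 16 of 29 of the Xevinapant samples. Of the 25 Cd8a cells with Pdcd1, 16 also held Lag3, another inhibitory receptor, and 13 held Tox, a transcription factor linked to exhaustion. Havcr2 (TIM-3) was found in 5 Foxp3 and 8 Cd8a cells, and Tigit in 4 and 2. In C1q and tumor barcodes Pdcd1 was found in 2.05% and 0.0611%.

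Of the 13 genes of naive and central memory cells, 12 were detected in a larger share of Cd8a than of Foxp3 cells. Klf2, a transcription factor that keeps cells in circulation, was found in 18 Cd8a and 3 Foxp3 cells, Lef1 in 17 and 3, and Ccr7, a receptor for lymph node homing, in 11 and 0. Il7r, the interleukin-7 receptor chain, went the other way, with 14 of 51 Cd8a and 15 of 23 Foxp3 cells. Among 20 homing genes, Cxcr6 was found in 27 Cd8a and 4 Foxp3 cells, Cxcr3 in 27 and 5, and Ccr6 in 0 and 7.

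**Figure D4:**
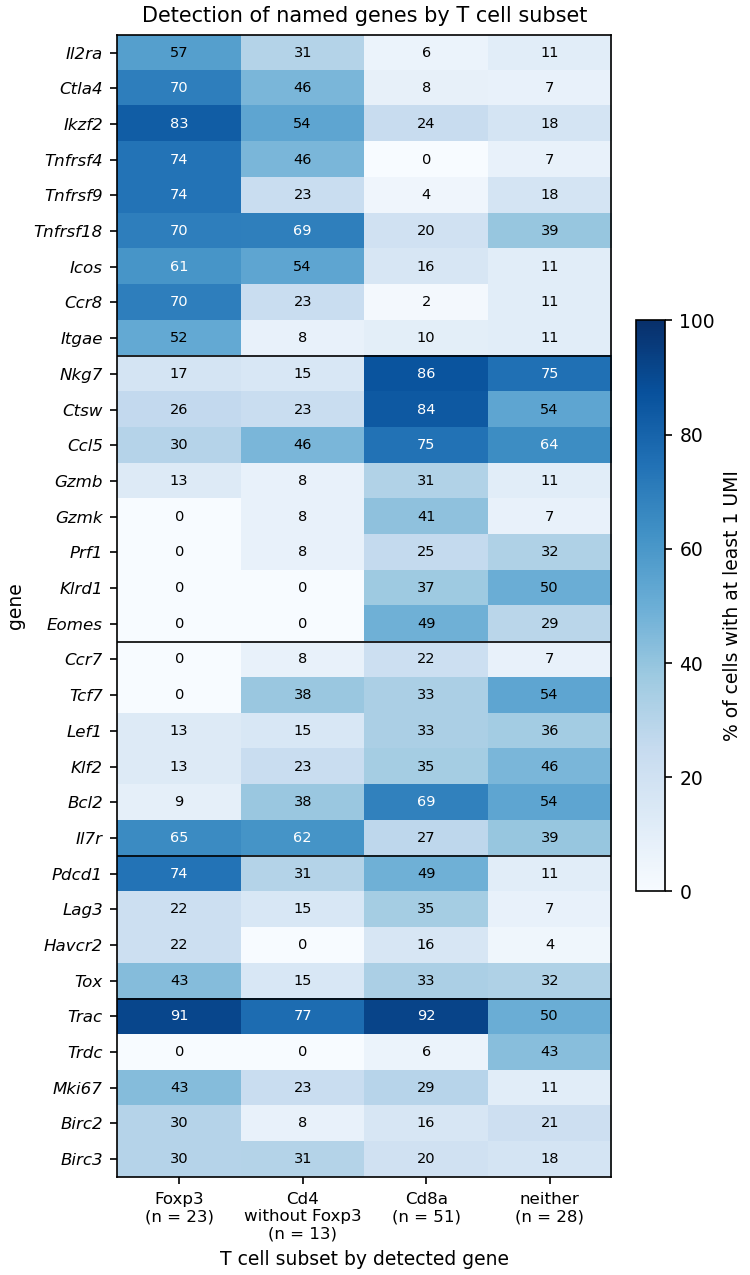
Percent of cells with at least 1 UMI of each named gene (rows, grouped by list) in the 4 subsets of T cells (columns, with cell numbers), read over all samples. Tnfrsf9 was found in 73.9% of Foxp3 cells and Nkg7 in 86.3% of Cd8a cells, and Tcf7 had no UMI in Foxp3 cells.

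The 28 cells with no Foxp3, Cd4 or Cd8a were mixed. Trdc, the constant region of the delta chain of the gamma delta receptor, was found in 12 of them and in 3 Cd8a cells, at 76 and 22 UMIs. Trac or a Trbv segment of the beta chain was found in 20 of the 28, and 6 held Trdc without either. The natural killer (NK) cell genes Ncr1 or Klrb1c were found in 10 cells, all of this subset, of which 6 also held Trdc and 4 held no Trac or Trbv. Txk, a kinase of T and NK cells, was found in 18 of the 28 and 15 of the 87 others, Klrd1, an NK receptor chain, in 14 and 19, and Tyrobp, an adaptor of NK and myeloid cells, in 9 and 5. Among 30 barcodes with Ncr1 and no Cd3 UMI, Tyrobp stood at 2274 CPM, against 552 CPM in this subset and 93.4 CPM in Cd8a cells. The same NK barcodes held Gzma at 4226 CPM, against 151 CPM in Cd8a cells and 0 in the subset with none, while Ccl5 stood at 4563, 4814 and 4529 CPM. Beside these, 1 cell with Cd8a (3324 UMIs, Xevinapant 1 and 2) held 3 UMIs of Cd79a and 4 of Cd22, both genes of B cells.

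No single segment of the beta chain was found in most T cells. Of 22 Trbv genes measured, 18 had UMIs, and 83 of the 115 cells held at least 1. One segment was found in 62 cells and more than 1 in 21, of which 16 were Cd8a cells, although probes of closely related segments may share targets and such counts are uncertain. Only 2 of the 44 cells with at least 3 UMIs of a segment reached that count for a second one. The most widespread segment, Trbv12-2, was found in 16 cells, in every sample. Trbv29 was found in 6 cells, 1 of Xevinapant 1 and 2 and 5 of Xevinapant 3 and 4, with 59 UMIs, and in no vehicle cell. Trbv14 was found in 8 cells over all 5 samples.

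The summed level of cell cycle genes was 5500 CPM in Foxp3 cells, 2473 CPM in Cd4 cells without Foxp3, 2177 CPM in Cd8a cells and 1104 CPM in the cells with none of the 3 genes, which was not tested. At least 5 of the 18 measured genes of that list were found in 18 cells, of which 7 were among the 23 Foxp3 cells, 9 among the 51 Cd8a cells, and 1 each in the other subsets. By sample these were 2 of 14, 0 of 5 and 3 of 24 vehicle cells and 2 of 17 and 11 of 55 Xevinapant cells. The tumor is rich in these transcripts: Mki67 was found in 27.0% of T cells, 35.3% of C1q barcodes and 75.9% of tumor barcodes, and at 1000 UMIs in 19.4%, 16.6% and 31.9%. The summed level of the list was 6745, 1662 and 2147 CPM in the vehicle samples and 1271 and 2677 CPM in the Xevinapant samples. In vehicle 1 and 3, 34 Mki67 UMIs lay in 2 of its 3 Foxp3 cells. Of the 77 Top2a UMIs, 21 and 18 also lay in 2 Foxp3 cells of that sample. The sum for Foxp3 cells given above thus rests in part on few cells.

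Among the targets of Xevinapant, Birc2 (cIAP1) was found in 22 T cells, Birc3 (cIAP2) in 26 and Xiap in 5. At 1000 UMIs, Birc3 was found in 11.7% of T cells, 4.98% of C1q barcodes and 1.16% of tumor barcodes, and Birc2 in 6.8%, 1.9% and 3.97%. Birc3 stood at 175, 0 and 87.6 CPM in the vehicle samples and 139 and 112 CPM in the Xevinapant samples, which overlap. Traf1, an adaptor that binds these proteins, was found in 19 of 23 Foxp3 cells, 27 of 51 Cd8a cells and 5 of the 28 with none. The summed level of the 24 genes of IAPs and NF-kB was 4175, 4398 and 4798 CPM in the vehicle samples and 3467 and 3874 CPM in the Xevinapant samples. Birc2, Birc3 and Xiap, at means of 118, 103 and 32.7 CPM over the 5 samples, were a small part of it. The groups of this sum did not overlap, and the same held for the sum of 22 interferon response genes, at 9110, 4594 and 9486 CPM against 10564 and 10009 CPM. The sums of dendritic and erythroid genes did not overlap either, as given with the other cell types below, so that 4 of 30 lists (13.3%) showed no overlap. These sums were not tested. With 3 samples against 2 there are only 10 ways to group the samples, so a lack of overlap carries little weight, and no background for it was computed. For single genes, 35.5% of those tested showed no overlap, but over 4 samples, 2 in each group, so this share is not a background for sums over 5 samples.

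Treatment was tested in counts summed per sample, in the 4 samples with at least 10 T cells (vehicle 1 and 3, vehicle 4, Xevinapant 1 and 2, Xevinapant 3 and 4). Of 990 genes that passed the filter on low counts, 0 passed an adjusted p of 0.05 in the quasi-likelihood test of edgeR (0% called), 53 had an unadjusted p under 0.05 (5.35%), and DESeq2 also called 0, with 9 genes at an unadjusted p under 0.05. The smallest adjusted p in edgeR was 0.83. With 1 sample left out, edgeR called 14 genes without Xevinapant 3 and 4 (3 up and 11 down, Foxp3 and Tnfrsf4 among those down), 2 without Xevinapant 1 and 2, 1 without vehicle 1 and 3 and 0 without vehicle 4. In such sums, a different mix of subsets and a different level per cell cannot be told apart.

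The 10 genes with the smallest p are given as values. Trbv29 had 0 UMIs in both vehicle samples and 10 and 49 in the Xevinapant samples. Pik3cd, the leukocyte form of the phosphoinositide 3-kinase catalytic subunit, stood at 146 and 241 CPM in vehicle and 809 and 588 CPM in Xevinapant (log2 fold change 1.77, SE 0.45, edgeR adjusted p = 0.83). Tardbp, Trim14 and Phf12 had log2 fold changes of 1.91, 1.46 and 1.70, and Socs1, an inhibitor of cytokine signalling, one of 1.93. On the lower side were Gm2a, Rbpj, Oaz1 and Ccr2, with log2 fold changes of -1.30, -1.31, -1.16 and -1.15, of which Rbpj is the transcription factor of Notch signalling and Ccr2 a chemokine receptor. None of the 10 passed the test.

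Every gene list with a tested member had 0 past the threshold, against 0% of all genes. Of the regulatory T cell genes 12 were tested, with a median log2 fold change of -0.96 and 1 positive value, beside a median of 0.0002 over all 990 genes and 495 positive values. This fit left out vehicle 2, where 0 of 5 cells held Foxp3, and kept Xevinapant 1 and 2, where 0 of 17 did. Summed over 22 regulatory genes, the groups overlapped in the 5 samples, at 4935, 977 and 7120 CPM in vehicle and 1595 and 4436 CPM in Xevinapant. The sums of the cytotoxic and of the naive and central memory lists overlapped as well. Tnfrsf4 stood at 321 and 723 CPM in vehicle and 23.1 and 225 CPM in Xevinapant, the low value being that of Xevinapant 1 and 2. Ctla4 stood at 87.6 and 504 CPM against 69.3 and 549 CPM. Of the 9 cytotoxic genes tested, 6 were positive, with a median of 0.31, and Ccl5 stood at 3037 and 2147 CPM against 4970 and 3028 CPM, which overlap. Of 9 genes of naive and central memory cells 8 were positive (median 0.51), of 12 interferon response genes 9 (median 0.44), of 16 receptor signalling genes 13 (median 0.25) and of 8 activation genes 0 (median -0.61). The activation list shares Il2ra, Tnfrsf4, Tnfrsf9 and Icos with the regulatory list. Ifit3, an interferon-induced gene, stood at 204 and 263 CPM against 485 and 588 CPM (log2 fold change 1.20, SE 0.44, edgeR adjusted p = 0.83), in 7 and 12 against 21 and 89 UMIs. The other lists tested were T cell identity (21 genes), homing (13), actin filament (29), oxidative phosphorylation (13), hypoxia and glycolysis (8), IAP and NF-kB (6), tissue residency (5), heat shock (5), proliferation (4), checkpoint (3), apoptosis (3), helper programs (2), gamma delta genes (2), myeloid genes (2) and macrophage genes (1), with medians from -0.65 to 0.34.

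**Figure D5:**
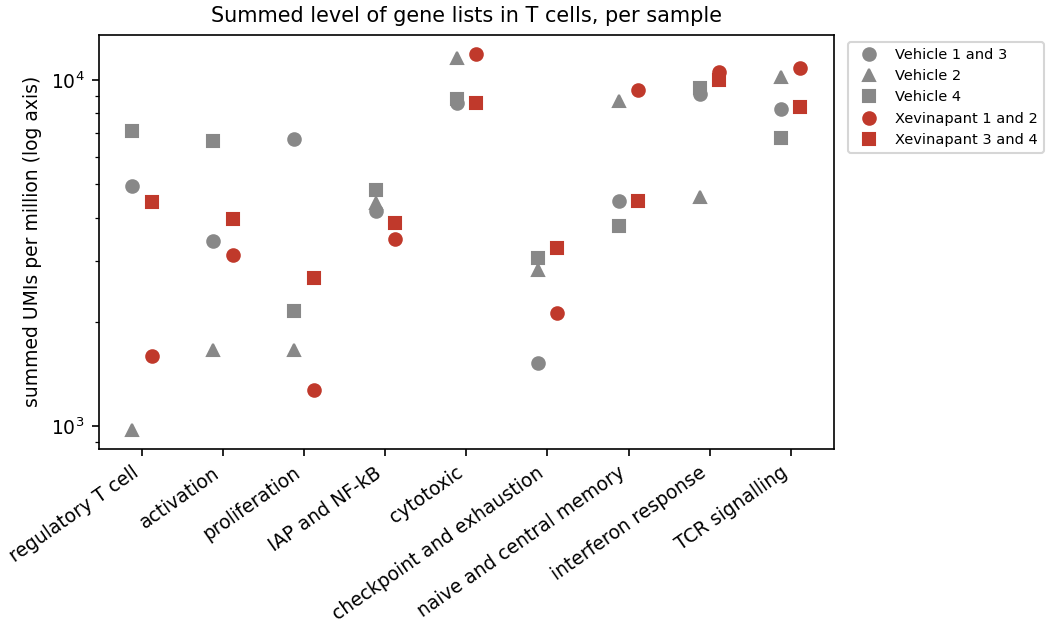
Summed level of 9 gene lists in the T cells of each sample, in CPM on a log axis, grey for vehicle and red for Xevinapant. The regulatory list was lowest in vehicle 2 and Xevinapant 1 and 2, the samples without Foxp3 cells (977 and 1595 CPM). The interferon and IAP lists were among the 4 of 30 lists with no overlap between the groups, which was not tested and carries little weight with 5 samples.

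Transcripts of other cell types were measured in the same cells. Summed over 10 tumor genes, T cells held 3.91%, 9.66% and 8.98% of the level of tumor barcodes in the vehicle samples and 3.32% and 12.4% in the Xevinapant samples, with 10 of 10 genes detected. Of 6 neutrophil genes 5 were at 0, of 7 mural and fibroblast genes 5, and of 7 dendritic genes 3, among them Flt3, Clec9a and Cd209a. The microglial genes Tmem119 and Siglech were at 0. The summed level of the 7 dendritic genes, which include genes of MHC class II, was 0, 0 and 21.9 CPM in the vehicle samples and 185 and 278 CPM in the Xevinapant samples, in 12 cells. That of 5 erythroid genes was 0, 97.7 and 0 CPM against 162 and 119 CPM, in 16 cells. Both sums were higher in the Xevinapant samples, without overlap, but 21.9 CPM in vehicle 4 and 97.7 CPM in vehicle 2 are 1 UMI each. Summed levels ran from 97.7 to 2563 CPM for 6 macrophage genes, from 69.3 to 219 CPM for 6 microglial genes and from 489 to 2475 CPM for 9 myeloid genes. Apoe, a macrophage gene, had 320 UMIs, of which 134 lay in 1 Cd8a cell of Xevinapant 3 and 4 and 93 in 1 Foxp3 cell of vehicle 4. The part of such transcripts in the results above was not tested. That Cd8a cell, of 6261 UMIs in all, also held 11 of the 20 Lyz2 UMIs and 41 of the 137 Cd74 UMIs. In all, 3 T cells held Csf1r or more than 2 UMIs of Lyz2, both myeloid genes, and 1 held genes of B cells. A score for doublets, Scrublet, placed none of the 115 T cells, these included, among the 3905 barcodes it ranked highest. Whether such cells are doublets was not tested further.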

How the data were processed

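The authors deposited 8 matrices of UMI counts, 4 for each treatment, for 19059 genes, as whole numbers without normalization. Per the file headers they came from Cell Ranger 7.1.0, whereas the labels name v3.0, with build mm10. Kept barcodes had 200 genes or more, 10% or less of their UMIs in mitochondrial genes, and a ratio of log10 genes to log10 UMIs of 0.8 or higher. The members and gene lists were chosen with earlier results of these data known. Matrices of a group were joined where the root mean squared difference of their gene means, in 1000 cells thinned to 5000 UMIs, was under 1.5 times sampling noise. The limit was first written for the mean squared difference, on which the joined pairs reached 1.05 to 1.79. A limit of 1.5 there joins only vehicle 1 and 3 and leaves 3 vehicle and 4 Xevinapant samples. The labels do not tie matrices to animals, and p-values measure the spread between these samples.

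For shares, the absolute difference of group means was set against all regroupings of the samples (exact permutation test, two-sided). Treatment was tested on summed UMI counts of samples with at least 10 T cells by edgeR 4.0.16 (TMM, filterByExpr, quasi-likelihood, Benjamini-Hochberg at 0.05), with DESeq2 1.42.0 as an alternative. The edgeR fit was first run on simulated counts with large planted changes, which does not show how well smaller changes would be found. Named genes were those past the threshold or, with none, the 10 with the smallest p, the 15 with the highest ratio to other leukocytes at 50 CPM or more (10 CPM added), and list members as examples. Some genes that these rules name are not reported here. Genes with the largest gaps between subsets were chosen after their values were seen. Of 443 list genes 429 were measured. Figures used matplotlib 3.10.9 under Python 3.11.15, Scrublet ran in scanpy 1.11.5, and edgeR in R 4.3.3.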

Additional observations from a re-analysis of the deposited data

How the results depend on the processing

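No paired analysis was possible because the labels hold 1 record for each treatment, nothing ties equally numbered matrices of both groups to an animal or a batch, and the joined samples span different matrix numbers. Settings for which barcodes in both pools, the minimum of cells or the C1q and tumor-gene limits were left out were chosen after seeing the data. The setting with only vehicle 1 and 3 joined was also added later, although the limit as first written, on the squared scale, gives it. The difference in the share of cells (Xevinapant minus vehicle, 0.146 percentage points) kept its direction in all 13 alternatives, with 0.174 without the C1q and tumor-gene limits, and ran from 0.061 to 0.232 with 1 sample left out. With each matrix as 1 sample it was 0.141 (exact permutation test, p = 0.0286). The difference in the share of leukocytes, 0.24 points, ran from -1.88 without Xevinapant 3 and 4 to 2.36 without Xevinapant 1 and 2, and was -0.203 without vehicle 2. For Foxp3 cells the difference of -5.05 points ran from -16.9 to 6.77 with 1 sample left out, and turned positive without vehicle 4 (1.10) or without Xevinapant 1 and 2 (6.77). This difference was -7.46 at 1000 UMIs and -13.5 with all 3 Cd3 genes required. For Cd4 cells without Foxp3 (3.40) it ran from -0.568, without vehicle 2, to 7.77 with 1 sample left out, was 7.93 at 1000 UMIs and was -1.57 with all 3 Cd3 genes required. For Cd8a cells (19.3) it ran from 11.5 to 31.1 with 1 sample left out and was 7.02 at 1000 UMIs. For cells with none of the genes (-17.7) it ran from -26.0 to -9.32 with 1 sample left out, was -7.48 at 1000 UMIs and was 0.786 with all 3 Cd3 genes. The cause of these reversals was not tested.

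The count of treatment genes was 0 under library sizes alone, DESeq2, equal totals, no cells with other lineage markers, all 5 samples, all 8 matrices and no shared barcodes. Removing Scrublet doublets took away no T cell, so that fit had the same input. It was 5 without the filter on low counts (Trbv29 up, and Trbv1, Nrgn, Ccl1 and Gzma down), and ran from 0 to 14 with 1 sample left out: 0 without vehicle 4, 1 without vehicle 1 and 3 (Ccl1), 2 without Xevinapant 1 and 2 (Nr4a3 and Ccl1) and 14 without Xevinapant 3 and 4 (3 up and 11 down). The sample left alone in its group is then assumed to vary like the others. Requiring all 3 Cd3 genes, or each matrix with 10 cells as 1 sample, left a group with fewer than 2 samples and was not run. The fits by Foxp3 and by Cd8a or Cd4 detection, and their alternatives, were not run, since 2 and 1 samples held 5 cells on both sides. With 115 cells, depth limits every value here.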
